A study of Rattus norvegicus with 4 samples.

Results

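Homeobox and Pax genes encode the transcription factors that give cells of the embryo their position along the body axes, and neural cells and glia often keep part of this pattern as they mature. A homeobox codes for the homeodomain, which contacts DNA. Pax proteins bind DNA through a paired domain, and some carry a homeodomain as well. Hox genes are ordered in clusters, where genes of low paralog number act in the hindbrain and neck and genes of high number act further back, while Otx, Emx, Lhx2 and Dlx genes are known from the forebrain. Nkx2-2 and Nkx6 genes mark ventral progenitors of the neural tube, and Nkx2-2 is a regulator of oligodendrocyte precursor cells (OPCs). The genes described here are all symbols that start with Hoxa to Hoxd, Nkx, Pax, Dlx, Lhx, Meis, Irx, Msx, Pbx, Emx or Otx followed by a digit, with the sine oculis genes named like Six4. This rule gave 97 symbols, of which 82 are among the 17327 symbols of the deposited counts and 91 are in the authors' table of 26404 Ensembl genes. One of them, Six6os1, matches by its name and is not a homeobox gene.

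The libraries came from OLN93, a spontaneously immortalized rat line with features of oligodendroglial cells that was grown in DMEM with fetal calf serum. The comparison was of 2 libraries of Sox10-positive control cells with 1 library each of clones A and B, in which Sox10 had been inactivated by CRISPR/Cas9 with different guide RNAs. Sox10 is an HMG-domain transcription factor of the oligodendroglial lineage and of neural crest. By the study's methods the control cells were clones too, while their labels name biological replicates. Each edited clone is a single isolate, so that a change caused by the loss of Sox10 and a change that arose while the clone was isolated cannot be told apart. P-values measure the spread between these 4 libraries.

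Library totals in the deposited counts were low, from 60951 to 104017. They lay far below the number of reads per library that the paper states, and what set them was not tested. The kit was stranded and the strand setting of the counting is not given in the sources used here, so that sense and antisense reads cannot be told apart in any of the counts, CPM and fold changes below. A gene was read as expressed in a library with more than 3 counts, which is the level that a count of 0 allows and which corresponded to between 29.0 and 48.2 normalized CPM (counts scaled to library size). The floor covers counting error only. Sox10 itself gave 28 and 64 reads in controls 1 and 2 but 0 in clone A and 14 in clone B. The library labelled clone B thus kept Sox10 reads. The log2 change of Sox10 was -2.74 ± 0.62 (SE; adjusted p = 0.0172, quasi-likelihood test of edgeR), and the adjusted p was 0.0695 without clone A and 0.447 without control 2. Among the 8 OPC markers, Pdgfra, Cspg4, Ptprz1, Sox10 and Nkx2-2 had enough counts to be tested. Olig1 had 12 and 1 counts in controls 1 and 2 and 0 in the clones, and its authors' mean, described below, was 153. Olig2 had 7 counts in control 1 and 0 in the other libraries, although its authors' mean was 0. Gpr17 had 2 counts each in control 1 and clone A and 0 in the other libraries. Astrocyte markers summed to 1 count and neuron markers to 2 counts over all libraries. These low sums do not show that the genes were absent. The authors' mean was 394 for the astrocyte marker Gfap and 156 for the neuron marker Snap25. It was 0 to 37 for the other astrocyte and neuron markers that had one. The summed level of 8 Schwann cell and neural crest markers, 7 of them listed, was 1723 to 1815 CPM in the controls and 499 to 867 CPM in the clones, with Ngfr, Erbb3 and S100b lower and Sox9 higher after adjustment. The 8 OPC markers summed to 2004 to 2216 CPM in the controls and 1445 to 1633 CPM in the clones, but without Sox10, a sum taken after the values were seen, the groups overlapped at 1384 to 1767 and 1445 to 1474 CPM. Cspg4 had 279 ± 30.5 CPM in the controls and 539 ± 186 CPM in the clones (SD, n = 2 each), which did not pass after adjustment. The 8 markers of myelinating oligodendrocytes summed to 968 to 1349 CPM in the controls and 420 to 682 CPM in the clones, with Cnp lower (adjusted p = 0.0331, edgeR). The 8 fibroblast and mesenchyme markers overlapped at 562 to 687 and 420 to 809 CPM, and of these Twist1 had 0 counts in both controls but 14 and 5 in the clones. The part of such shifts in the results on single genes was not tested, and fewer cells of a type and less RNA per cell cannot be told apart.

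The second source was the authors' mean read count per Ensembl gene. Its header names no samples, and it was read here as a mean of normalized counts over all 4 libraries. These means sum to 19320879 over all genes, far above a library total of the deposited counts. No value per group was used from that table, so that the mean tells here whether a gene was read in OLN93 cells but not in which ones. The mean is not corrected for gene length, and genes were therefore not ranked by it. Of the 91 symbols in that table, 27 had a mean of 100 or more, 5 had a mean of 10 to 99, 11 had a mean of 1 to 9 and 48 were listed at 0. In the deposited counts, 28 of 82 symbols had at least 1 count, 12 had more than 3 counts in a library and 54 had no count. Over the 76 symbols in both sources, 48 had no count in any library, and 35 of these also had an authors' mean of 0. The other end of the same comparison held Hoxc4, Irx2, Irx5, Otx1 and Pbx4, which had no count at authors' means of 218, 290, 160, 123 and 118. At the median share of deposited counts, 0.384% as described below, these means correspond to only 0.453 to 1.11 counts per library. Hoxd4, Lhx8 and Pax6 had 2, 1 and 4 counts in all and an authors' mean of 0. For Pax6, an eye and forebrain factor, these were 2 counts in each control and 0 in each clone.

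**Figure D1:**
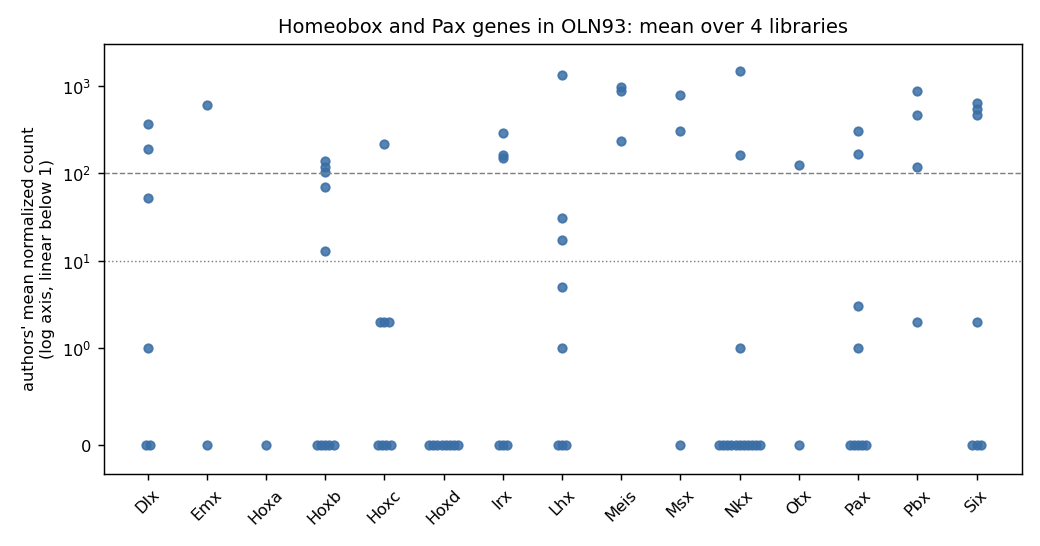
Authors' mean count for the 91 symbols of the authors' table, read as a normalized mean over the 4 libraries. Genes are grouped by family, with a point per gene, an axis that is logarithmic above 1, and lines at means of 10 and 100. All 3 Meis genes lie above 100, whereas all 8 Hoxd genes lie at 0.

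Hox genes with an authors' mean of 10 or more lay in the front part of cluster b, with Hoxc4 as the single gene of cluster c. Of 27 Hox symbols in the authors' table, 6 had a mean of 10 or more. Hoxb2 had a mean of 13, Hoxb3 of 102, Hoxb4 of 69, Hoxb5 of 119, Hoxb6 of 136 and Hoxc4 of 218. These 6 genes were among the 13 symbols of paralog groups 1 to 6, and none of the 14 symbols of paralog groups 7 to 13 had a mean above 2. Hoxb1 and Hoxb7, which flank the read stretch of cluster b, were both listed at 0. The 8 Hoxd genes of the table were listed at 0. Hoxa4, the only Hoxa symbol of the table, was listed at 0 too. The other 5 Hoxa symbols had no authors' mean, so that cluster a could not be judged from that table. Hoxc5 and Hoxc6, next to Hoxc4, had means of 2. The 26 Hox symbols of the deposited counts summed to 3 and 4 counts in controls 1 and 2, and to 2 and 0 counts in the clones. In GRCr8, Hoxc4 overlaps Hoxc6, and Hoxb5 and Hoxb6 overlap the lncRNA Hoxb5os, so that reads of these genes may be split or dropped in counting. No Hox gene passed 3 counts in a library, so that no difference between clones and controls was detectable for any of them in the deposited counts. Hoxb3, with 3 counts in control 2 and 0 in the other libraries, had the highest count of the family.

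**Figure D2:**
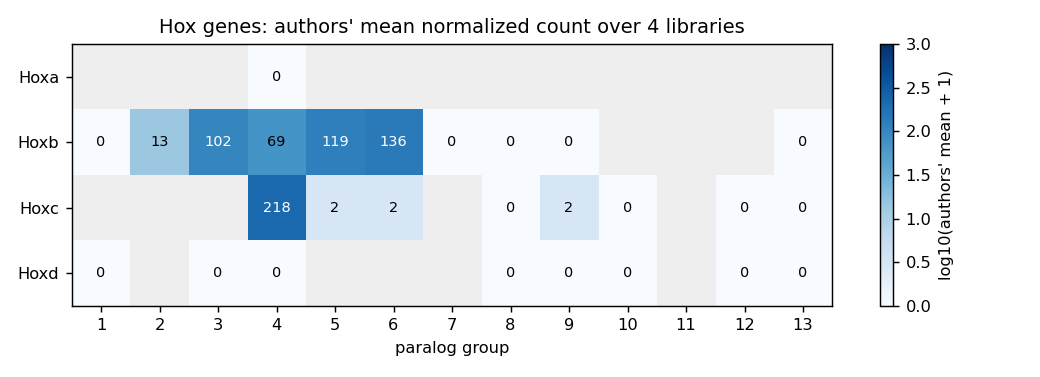
Authors' mean count of the Hox genes, read as a normalized mean, by cluster (rows) and paralog group (columns). Colour is log10 of the mean plus 1, the number in a cell is the mean, and grey cells hold no gene of the authors' table. Values of 13 to 218 occupy Hoxb2 to Hoxb6 and Hoxc4, and the cells of groups 7 to 13 hold values of 0 to 2.

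The families outside the Hox clusters were read in part, gene by gene. Among forebrain genes, Emx2, a factor of the cerebral cortex, had an authors' mean of 609 and Lhx2, a LIM-homeodomain factor of cortex and eye, of 1324. Otx1 had a mean of 123, whereas Otx2, its paralog in forebrain and midbrain, was listed at 0, as were Emx1, Nkx2-1 and Six6. Dlx1 and Dlx2, which are known from ventral forebrain neurons, had means of 369 and 189, and Dlx5 and Dlx6 were listed at 0. Of 14 Nkx symbols, Nkx2-2 had a mean of 1480 and Nkx6-1 of 160, Nkx6-2 had a mean of 1, and the other 11 were listed at 0. Pax3, which is known from the dorsal neural tube and neural crest, had a mean of 304, and Pax9, a factor of the pharyngeal pouches and skeleton, of 165. The other 7 Pax genes had means of 0 to 3. Msx1 and Msx2, which act downstream of BMP signals, had means of 301 and 789, and Msx3 was listed at 0.

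Many TALE genes, which encode partners of Hox and other homeodomain proteins and are named for an extended loop in the homeodomain, were read. Meis1, Meis2 and Meis3 had authors' means of 234, 977 and 865. Pbx2, Pbx3 and Pbx4 had means of 861, 460 and 118. Irx2, Irx3 and Irx5 had means of 290, 150 and 160, and Irx1, Irx4 and Irx6 were listed at 0. Thus 9 of these 13 TALE symbols had a mean of 100 or more, compared with 4 of 27 Hox symbols. At a mean of 10 or more these were 9 and 6 symbols. The comparison takes no account of gene length, and the Hox symbols of the table include only 1 of cluster a. In the sine oculis family, whose members act with Eya proteins in sense organs and muscle, Six4 had a mean of 466 and Six5 of 538, and Six2, Six3 and Six6 had means of 0 to 2.

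Some neighbouring members were read together and others were not. By gene order in GRCr8, a later assembly than the rn5 of the counts, 36 pairs of members of the authors' table follow each other among named protein-coding genes. Both genes had a mean of 10 or more in 7 pairs, neither did in 19 pairs, and the members of a pair differed in 10 pairs. Dlx1 and Dlx2 were both read, as were Irx5 and Irx3. Nkx2-2, with a mean of 1480, lies between Nkx2-4 and Pax1, which were both listed at 0. Pairs within a cluster overlap in their genes, and no test was made.

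The stretches upstream of Nkx2-2, Dlx1 and Lhx2 are shown because Nkx2-2 and Dlx1 had enough counts for the test across all genes and because Lhx2 had the clearest separation of groups among the members that did not. They are the 250 bases before the annotated start in RefSeq for GRCr8, a table in which 60 of the 97 symbols have an entry. CAAAG and CAATG, the core letters of sites bound by Sox proteins, were searched on both strands, and matches are in capitals.
Nkx2-2, GRCr8 chr3:155075623-155075872, minus strand: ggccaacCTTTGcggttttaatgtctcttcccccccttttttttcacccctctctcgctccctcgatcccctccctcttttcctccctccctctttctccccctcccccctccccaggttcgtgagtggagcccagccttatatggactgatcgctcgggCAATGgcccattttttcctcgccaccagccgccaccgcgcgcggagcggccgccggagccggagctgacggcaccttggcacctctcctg
Dlx1, GRCr8 chr3:76763614-76763863, plus strand: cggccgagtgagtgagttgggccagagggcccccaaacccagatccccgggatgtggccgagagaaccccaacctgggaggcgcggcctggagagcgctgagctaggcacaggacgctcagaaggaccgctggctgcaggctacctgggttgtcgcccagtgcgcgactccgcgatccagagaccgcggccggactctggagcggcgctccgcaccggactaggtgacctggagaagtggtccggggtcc
Lhx2, GRCr8 chr3:42535494-42535743, plus strand: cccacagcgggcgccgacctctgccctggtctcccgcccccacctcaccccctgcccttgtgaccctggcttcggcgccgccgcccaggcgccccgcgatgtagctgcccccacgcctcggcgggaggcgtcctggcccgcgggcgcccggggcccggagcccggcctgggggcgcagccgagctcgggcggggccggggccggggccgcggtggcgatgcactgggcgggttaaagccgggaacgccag
The stretch of Nkx2-2 held CAAAG on the reverse strand, 243 bases before the start, and CAATG on the forward strand, 90 bases before it. Neither word was in the stretches of Dlx1 and Lhx2, which says nothing on binding of Sox10. These short words occur in 64.9% of all 33469 upstream stretches of the table and in 66.7% of the 63 that belong to members.

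The comparison of clones with controls asked which of these genes depend on Sox10 in OLN93 cells. Nkx2-2, Emx2 and Dlx1 were the members with enough counts to be tested, and none of them differed beyond the spread between libraries. At the threshold of 0.05 for the adjusted p (edgeR), 0 of these 3 members were lower and 0 were higher, where 2.5% of the 2438 tested genes were lower and 1.19% were higher. Under a looser rule, a 2-fold change at an unadjusted p up to 0.05 (edgeR), again 0 members were lower, where 6.97% of all tested genes were, and 0 were higher, where 4.63% were. On the unadjusted p alone, edgeR called 0 of the 3 members, and it called 14.7% of the tested genes. DESeq2 called 0 of the 3 as well. With control 1 left out, 2 members, Nkx2-2 and Emx2, were lower by the looser rule, where 5.7% of 3156 tested genes were. With clone B left out Emx2 was, where 5.44% of 3068 genes were. The median log2 fold change of the 3 members was -0.77 and that of all tested genes -0.01.

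Nkx2-2 was counted 20 and 52 times in controls 1 and 2, and 18 and 25 times in clones A and B. Scaled to CPM, levels were 321 and 503 in the controls against 208 and 283 in the clones. Both clones lay below both controls, and the gap between the lower control and the higher clone was small beside the spread of the controls. Nkx2-2 had 412 ± 129 CPM in the controls and 246 ± 53.3 CPM in the clones (SD, n = 2 each). The log2 change was -0.77 ± 0.38 (SE), with a 95% interval of -1.57 to 0.02 and an adjusted p of 0.359 from edgeR. The interval runs from a level of 0.338 to 1.01 times that of the controls. The estimate leaned on control 2, since the log2 change was -0.40 without it and -1.05 without control 1.

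Emx2 was counted 9 and 34 times in controls 1 and 2, and 8 and 15 times in clones A and B. The controls had 145 and 329 CPM and the clones 92.5 and 170 CPM, so that clone B lay above control 1 and the groups overlapped. The log2 change of Emx2 was -0.91 ± 0.51 (SE), with a 95% interval of -1.98 to 0.16 and an adjusted p of 0.449 from edgeR. It was -0.16 without control 2 and -1.40 without clone B.

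Dlx1 was counted 8 and 15 times in controls 1 and 2, and 20 and 18 times in clones A and B. Its 128 and 145 CPM in the controls lay below the 231 and 204 CPM of the clones. Both clones lay above both controls, at means of 137 ± 11.8 CPM in the controls and 218 ± 19.2 CPM in the clones (SD, n = 2 each). The log2 change was 0.65 ± 0.47 (SE), with a 95% interval of -0.34 to 1.64 and an adjusted p of 0.595 from edgeR, which did not pass the test.

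The counts of these 3 genes were set against the authors' table. Over 5353 genes with an authors' mean of at least 500, the mean deposited count per library was 0.384% of the authors' mean in the median. The value was 1.94% for Nkx2-2, 2.71% for Emx2 and 4.13% for Dlx1, which is 5.06, 7.05 and 10.8 times that median. The 3 genes had passed a filter on the deposited counts, which favours a high share, and 15.4% of the 2123 tested genes with an authors' mean of 100 or more reached at least 4 times the median, compared with 3.44% of the 5353 genes. The authors' mean of Dlx1, 369, lies below those of the 5353 genes. At the median share, the authors' means correspond to 5.68 counts per library for Nkx2-2, 2.34 for Emx2 and 1.42 for Dlx1. Among the 25 members in both sources with an authors' mean of 100 or more, 17 lay within 2 times the median either way, these 3 lay above and 5 lay at 0. In GRCr8, Dlx1 overlaps an annotated lncRNA on the opposite strand, LOC108350393, and Emx2 overlaps a gene annotated as its antisense RNA, Emx2os, whose strand that table does not give. Nkx2-2 overlaps no gene of that table. Over genes with an authors' mean of at least 500, a share of at least 4 times the median was reached by 8.71% of the 1194 genes that overlap a gene on the opposite strand and by 1.58% of the 3047 that do not. With the strand setting not given, reads from Dlx1 or Emx2 and from the overlapping transcript cannot be told apart.

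**Figure D3:**
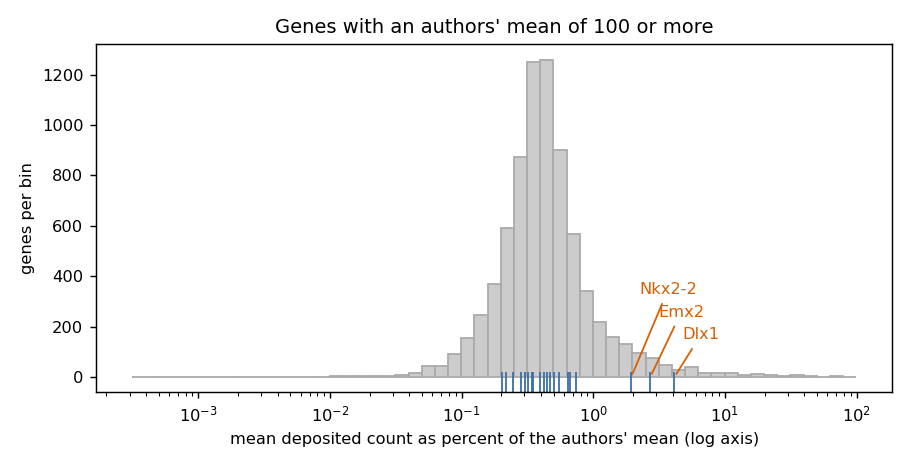
Mean deposited count per library as a percent of the authors' mean, on a logarithmic axis, for genes with an authors' mean of 100 or more and at least 1 count. Grey bars count genes, and blue ticks below them are members. Nkx2-2, Emx2 and Dlx1, at 1.94%, 2.71% and 4.13%, lie to the right of the other members.

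A further 9 members passed 3 counts in a library without being tested, and for 8 of these the ratio of pooled counts is given with an exact 95% interval that covers counting error only, or, for Meis3, a limit. Both controls of Lhx2, Msx1, Msx2 and Nkx6-2, and both clones of Six4 and Pbx2, had 3 counts or fewer. The sizes of these ratios are thus poorly known and cannot be set beside the limit of Meis3. Lhx2 was counted 1 and 2 times in the controls and 7 and 8 times in the clones, or 16.1 and 19.4 against 80.9 and 90.7 CPM. Both clones lay above both controls, with a ratio of 4.74 (interval 1.34 to 25.5). The deposited counts of Lhx2 were 0.885 times the median share of the authors' mean. Meis3, a TALE factor of the hindbrain, gave 0 counts in both controls but 5 in clone A and 2 in clone B, and was at least 1.04-fold higher against 3 counts per library. Without the filter on low counts, Lhx2 and Meis3 had unadjusted p-values of 0.0393 and 0.0395 and an adjusted p of 0.643 from edgeR. These were 2 of 28 members with a count, where 7.01% of the 10024 genes with a count reached an unadjusted p of 0.05 or less. Both were higher by at least 2-fold, where 2.94% of these genes were. By the same rule 0 of the 28 members were lower, where 3.28% of these genes were. After adjustment 0 of 28 were lower and 0 were higher, where 0.708% and 0.469% of these genes were.

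Msx1 was counted 0 and 1 times in the controls and 3 and 4 times in the clones, with a ratio of 6.64 (interval 0.852 to 299). Msx2 was counted 1 and 3 times in the controls, and 8 and 2 times in clones A and B. Its higher count was in clone A, clone B lay between the controls in CPM, and the ratio was 2.37 (interval 0.684 to 10.4). Meis2 had 0 and 4 counts against 3 and 4, with a ratio of 1.66 (interval 0.422 to 7.73), and its groups overlapped.

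Six4 and Pbx2 had fewer counts in the clones. Six4 was counted 2 and 7 times against 2 and 1 times, with a ratio of 0.316 (interval 0.055 to 1.27). Six4 overlaps Mnat1 on the opposite strand in GRCr8. Pbx2 was counted 3 and 6 times in the controls, and 0 and 3 times in clones A and B, with the same ratio as Six4 since its summed counts were the same. The intervals of Six4 and Pbx2 include 1. Nkx6-2, a ventral factor that is later kept in oligodendrocytes, had 1 count in each control and 0 and 4 counts in the clones, with a ratio of 1.90 (interval 0.272 to 21.0), and its higher value came from 1 library.

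**Figure D4:**
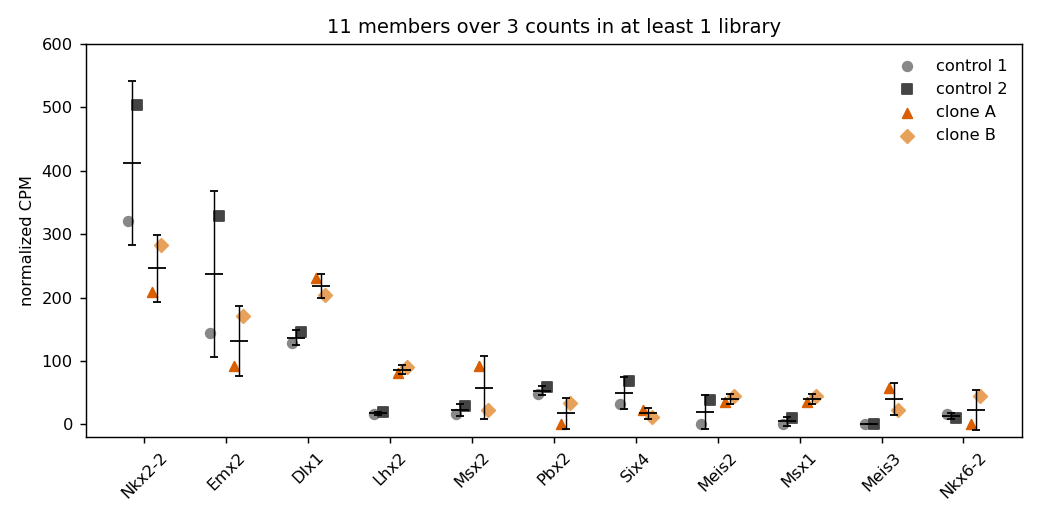
Normalized CPM in each library for 11 of the 12 members with more than 3 counts in at least 1 library. Symbols mark the libraries, and black bars give the mean and SD of each group (n = 2). Nkx2-2 and Emx2 reach 503 and 329 CPM in control 2, and Lhx2 lies near 18 CPM in the controls and near 86 CPM in the clones.

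**Figure D5:**
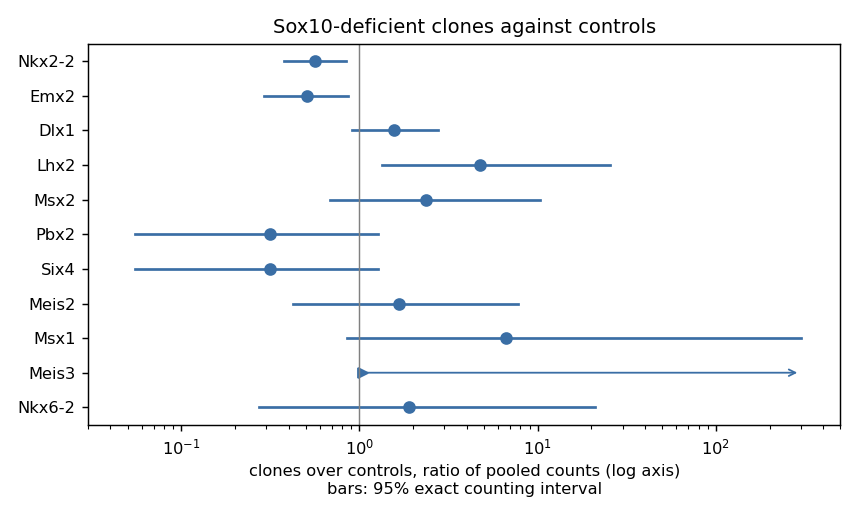
Ratio of pooled counts in the clones over those in the controls for the same 11 members, on a logarithmic axis with exact 95% intervals for counting error. The arrow of Meis3 starts at its limit of 1.04, and the intervals of Nkx2-2 and Emx2 end below 1 because they leave out the spread between libraries.

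Of the 12 members, 4 were lower in both clones than in both controls, among them Nkx2-2, Pbx2 and Six4, and Dlx1, Lhx2, Meis3 and Msx1 were higher. These are 4 of 12 in each direction, where 18.4% of 6926 genes with more than 3 counts in a library were lower without overlap and 20.3% were higher. Summed over all members that were not tested, controls 1 and 2 gave 22 and 43 counts while clones A and B gave 37 and 42, or 353, 416, 428 and 476 CPM. The other 16 members with a count had 3 or fewer in every library. With the 54 members at 0 they gave no detectable difference in the deposited counts.

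Few genes that work with these factors could be tested. Of 21 partners of TALE, LIM and sine oculis proteins, 3 could be tested and 0 were called after adjustment, where 2.5% of all 2438 tested genes were lower and 1.19% higher. Ssbp3, a cofactor in LIM-homeodomain complexes, was counted 5 and 13 times in the controls against 26 and 25 times in the clones, a log2 change of 1.44 ± 0.46 (SE; edgeR, adjusted p = 0.101) that passed only the looser rule. By that rule 4.63% of all tested genes were higher and 6.97% lower. Lmo4 and Tgif1 had log2 fold changes of -0.33 and 0.14. For Polycomb genes, which hold Hox clusters silent, 4 of 30 could be tested, among them Ezh2 with a log2 fold change of -0.11, Rbbp7 with 0.09 and Phc2 with 0.94. For Trithorax and related genes, 2 of 16 could be tested, Ncoa6 with -0.56 and Ctcf with 0.15. For retinoid genes, which set Hox expression in the hindbrain, 2 of 21 could be tested, Rarg with 0.66 and Cyp26b1 with -0.66. Aldh1a3, which makes retinoic acid, was counted 1 and 2 times in the controls against 11 and 7 times in the clones and was not tested. No gene of the Polycomb, Trithorax and retinoid lists met either criterion.

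Of 70 other homeobox and related genes, 5 could be tested and 1 was called lower after adjustment, where 2.5% of all tested genes were. Zeb2, a zinc-finger homeobox factor of neural crest and differentiating oligodendrocytes, was counted 35 and 49 times in the controls and 17 and 19 times in the clones. It fell from 518 ± 62.1 to 206 ± 13.3 CPM (SD, n = 2 each). The log2 change was -1.31 ± 0.35 (SE; edgeR, adjusted p = 0.0477). This call lay at the threshold and was lost under 8 of 10 alternatives, with adjusted p-values from 0.0346 to 0.411. Prrx1, a paired-related factor of mesenchyme, had a log2 fold change of 0.18. Phox2a, a factor of autonomic neurons, was counted 16 and 25 times in the controls and 23 and 21 times in the clones although its authors' mean was 0. It was 1 of 30 tested genes with an authors' mean of 0, out of 2331 tested genes that could be paired with that table.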

How the data were processed

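RNA of 2 control libraries and 2 Sox10-deficient clones of OLN93 cells was sequenced by the authors as stranded mRNA libraries. The authors used STAR for mapping on rn5, a rat assembly, and deposited, for each library, HTSeq counts per gene symbol without normalization. The strand setting and the annotation by symbol are not given in the sources used here. The deposited comparison table holds the mean of normalized counts over all libraries, rounded by the authors and treated here as a score, together with their fold changes and p-values, which were not used. The test was that of edgeR 4.0.16 under R 4.3.3 (filterByExpr, TMM, glmQLFit and glmQLFTest, condition as the sole term), with Benjamini-Hochberg adjustment over 2438 genes. Standard errors were derived from the F statistic. Code was tested on simulated data. Symbols were matched to RefSeq tables of GRCr8. Members over 3 counts in a library and the 10 of highest mean CPM were named with values, and of the partner lists, genes called after adjustment and the 3 of highest mean CPM. Ssbp3, Phox2a, Olig1, Olig2, Gpr17, Gfap, Snap25, Twist1, Col1a1, Pdgfrb and members of 3 or fewer counts that are named with values were named after their values were seen. Members and lists were chosen with earlier results of these data known. The alternatives were DESeq2 1.42.0, its size factors, library totals, other filters, other prior counts, the replicate number in the model, other floors for expression, and leaving out each library. Values of some members are not reported here.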

Additional observations from a re-analysis of the deposited data

Results flagged for a closer look

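A total of 4 members for which no count per library was used here had a signal above 3 in the authors' table, where no value per group was used. Their authors' means were 136 for Hoxb6, 13 for Hoxb2, 538 for Six5 and 17 for Lhx3. At the median share of 0.384%, these means correspond to few counts per library. No group had enough libraries to look for a library far from the others.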

How the results depend on the processing

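Nkx2-2 and Emx2 stayed lower and Dlx1 higher under every alternative that gave a value, and none was called after adjustment, with adjusted p-values of at least 0.151 for Emx2, 0.177 for Nkx2-2 and 0.556 for Dlx1. Emx2 and Dlx1 were not tested with at least 10 counts in every library. By 2-fold and an unadjusted p, 0 to 2 members were lower when a library was left out, and 2 members were higher without a filter. Members counted as expressed were 28 with more than 0 counts and 3 with more than 9. Over all genes, after adjustment, 61 were lower and 29 higher. The cause of the following shifts was not tested, except that filters change the number of genes tested. Without a filter 47 were higher, at least 10 counts in every library left 24 lower, and DESeq2 gave 28 lower and 9 higher. Leaving out each library in turn gave 2 to 70 lower and 0 to 39 higher genes, the lowest without control 2. By 2-fold and an unadjusted p, no filter gave 329 lower and 295 higher genes, at least 10 counts gave 39 and 32, and DESeq2 gave 103 and 68. With DESeq2, Sox10 had a log2 fold change of -2.74, an unadjusted p of 0.217 and an adjusted p far above 0.05. Without a library, the log2 fold change of Sox10 from edgeR ran from -8.51 to -1.75. The first of these values, without clone B, sets the controls against 0 counts and so is set by the prior count. Without control 2 or without clone A, Sox10 was not called.

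The libraries share replicate numbers but no stated pairing. The difference between controls 1 and 2 and that between clones A and B correlated at 0.12, taken over genes, which are no independent samples. With the replicate block, 28 genes were lower and 14 higher after adjustment, the log2 fold change of Sox10 was -2.82 (adjusted p = 0.125 from edgeR), and no member was called after adjustment.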
